A study of Homo sapiens with 40 samples.

Results

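The response of PARP1-KO HEK293A cells to topotecan (Tpc) given together with OL9-119 was examined here. The comparison is between the 4 libraries titled KO_PARP1 with TPC_OL9 and the 4 libraries titled KO_PARP1 with DMSO, which are 8 of the 40 libraries of the series. HEK293A is an adherent line of human embryonic kidney cells, and the PARP1-KO cells are 1 clone made with CRISPR/Cas9, so an effect of the clone and an effect of the lost gene cannot be told apart. Both groups carry the PARP1 deletion. The treated cells received 50 nM Tpc and 5 µM OL9-119, and the control cells received 0.1% DMSO. The labels give no amount of DMSO for the combination, but the study states that OL9-119 was dissolved in it and that the combination samples held it too. Exposure lasted 5 to 5.5 h. The 12 remaining PARP1-KO libraries, 4 each without treatment, with 50 nM Tpc in 0.1% DMSO and with 5 µM OL9-119 in 0.1% DMSO, entered the fit and served as side comparisons, as did the 8 WT libraries with DMSO or with 100 nM Tpc and 5 µM OL9-119. The labels call the replicates biological and the study's methods call them technical, so the p-values below measure only the spread between these libraries. The test of each gene was the quasi-likelihood F-test in edgeR, fitted on all PARP1-KO libraries, with Benjamini-Hochberg adjustment over all genes tested, and a gene with an adjusted p below 0.01 was called a DEG.

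TOP1 relaxes supercoiled DNA by cutting 1 strand and rejoining it, and Tpc traps the enzyme on the cut DNA. A trapped TOP1 blocks the elongating RNA polymerase, and inhibition of TOP1 is known to lower the transcripts of long genes more than those of short genes. TDP1 cleaves the bond between the trapped TOP1 and the DNA, and OL9-119 is an inhibitor of TDP1. PARP1 binds DNA breaks, makes poly(ADP-ribose) and takes part in the repair of TOP1-linked breaks.

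The PARP1 transcript was low in every PARP1-KO library. Its level was 30.4 to 46.6 CPM (counts of the gene relative to the scaled total of the library) with DMSO and 33.1 to 43.9 CPM with Tpc + OL9-119, against 737 to 850 CPM and 762 to 828 CPM in WT cells with the same treatments. The genotypes did not overlap (exact permutation test, two-sided, p = 0.0286 for each treatment, the smallest value for 4 against 4 libraries). PARP1 still had 296 to 752 counts per PARP1-KO library with DMSO and 322 to 558 with Tpc + OL9-119. Values of both genotypes are scaled over all 40 libraries, and the other levels below over the 20 PARP1-KO libraries, unless WT is named. Of the 8 markers of the embryonic kidney line, VIM, KRT8, KRT18, NEFL and SOX4 lay between 190 CPM for SOX4 and 957 CPM for VIM in the libraries compared, while SOX11 was at 21.7 to 38 CPM, NEFM at 5.67 to 9.21 CPM and PAX2 at or below 1.9 CPM. Of 10 markers of the differentiated kidney, 7 reached the 10 summed counts needed for a test, among them AQP1 at 12 to 20.4 CPM and LRP2 at 5.88 to 11.5 CPM, and AQP2 and UMOD did not. The leukocyte gene PTPRC was at or below 0.261 CPM. The libraries held 9724675 to 18458588 counts with DMSO and 9874242 to 13301820 with Tpc + OL9-119. The genes with at least 1 count numbered 21440 to 26039 and 21421 to 24582.

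The replicate 3 libraries of both groups went against their labels. The first principal component of the 20 PARP1-KO libraries held 34.2% of the variance of 500 genes. The 4 Tpc libraries lay between 3.27 and 4.52, and replicates 1, 2 and 4 of Tpc + OL9-119 between 3.91 and 4.25. The untreated and OL9-119 libraries and replicates 1, 2 and 4 of DMSO lay at or below −1.35. The library labelled DMSO replicate 3 lay at 3.26 and the library labelled Tpc + OL9-119 replicate 3 at −3. These 2 libraries are also the only ones of their groups whose names begin with L02 and the ones with the fewest genes detected (21440 and 21421). The L02 libraries of the other treatments lay on the side of their own labels. When this prefix was added to the fit the count of DEGs given below was 0 as labelled and 152 without replicate 3. Both groups hold the same prefixes, so this fit cannot account for 2 libraries of L02 moving in opposite directions. The part of the prefix in that and the part of the number of genes detected were not tested. The labels were kept as they are, and each result is given as labelled (4 against 4 libraries) and with replicate 3 of both groups left out (3 against 3 libraries). This omission was proposed after earlier results of these data were known, so it is not a choice independent of the data. The p-values without replicate 3 do not account for it. The DMSO and Tpc + OL9-119 libraries that remain were the basis for choosing the DEGs of the second comparison, so their separation in those genes is a description.

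As labelled, 0 of 27009 genes were DEGs (0% of those tested). At an unadjusted p below 0.05 there were 1472 genes (5.45%), and DESeq2 also called 0 genes, with 985 at an unadjusted p below 0.05. Leaving out the library labelled Tpc + OL9-119 replicate 3 alone gave 21 DEGs, all lower, and leaving out the library labelled DMSO replicate 3 alone gave 3. With both left out, 147 of 26678 genes were DEGs (0.551%), 22 higher (0.0825%) and the others lower (0.469%), and 2300 genes (8.62%) had an unadjusted p below 0.05. The count differed with the libraries compared and fitted. Against the untreated libraries in place of DMSO it was 276 (1.03%). It was 566 when only the 6 libraries were fitted and 5 when the WT libraries were fitted as well. In that last fit MT-ND5 (adjusted p = 4.57e-11), TFRC (0.00342) and PARD3 (0.00768) passed, while ERC1 (0.166), JUN (0.168), MT-TP (0.194), MYC (0.246), HSPA8 (0.259) and CHAC1 (1) were among those that did not. Leaving out 1 of the 6 libraries in turn gave 60 to 91 DEGs.

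The 147 DEGs were then read in the other PARP1-KO libraries. The replicate 3 libraries had no part in the choice of these genes, but they were left out with earlier results of these data known. Their placement is therefore a description. The untreated, Tpc and OL9-119 libraries entered the estimate of the spread. In the library labelled DMSO replicate 3, 112 of the 147 genes (76.2%) were nearer to the mean of the 3 Tpc + OL9-119 libraries than to that of the 3 DMSO libraries, among them 20 of the 22 higher and 92 of the lower genes. In the library labelled Tpc + OL9-119 replicate 3, only 5 of the 147 genes (3.4%) were nearer to the Tpc + OL9-119 mean. The share was 64.6% to 86.4% in the 4 Tpc libraries, 17.7% to 21.8% in the 4 OL9-119 libraries and 0% to 10.9% in the 4 untreated libraries. Each of the 147 genes had the same sign as labelled, with a median log2 fold change of 0.251 for the 22 higher and −0.35 for the lower genes, against 0.512 and −0.634 without replicate 3. The comparison as labelled contains the libraries that chose these genes, so the shared sign follows in part from that.

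**Figure D1:**
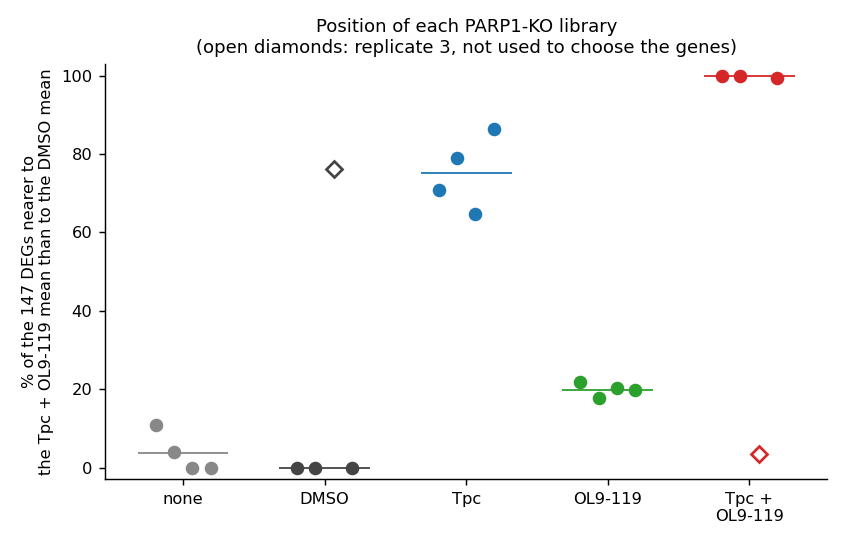
Share of the 147 DEGs, chosen without replicate 3, for which each PARP1-KO library was nearer in log2 CPM to the mean of the 3 Tpc + OL9-119 libraries than to that of the 3 DMSO libraries (vertical axis, percent), by labelled treatment; the open diamonds are the replicate 3 libraries and the lines are means of the filled points. The open diamond labelled DMSO lies at 76.2%, within the range of the Tpc libraries (64.6% to 86.4%), and the one labelled Tpc + OL9-119 lies at 3.4%.

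The 3 sequences below are shown for the genes on which the results below turn, since they are the promoters and the transcript whose known control or position a reader would look up beside the values. The promoters are RefSeq sequences of 300 bases on GRCh38.p14, with 250 bases before the RefSeq start of the gene. For both genes that start lies inside the longer GENCODE gene, whose coordinates are given with the values. The promoter of CHAC1, the DEG with the largest rise after TFRC, lies at chr15:40953221-40953520 on the plus strand, and the capitals mark the match to the C/EBP-ATF response element TGATGNAA, which is bound by ATF4. That of HSPA8, the constitutive chaperone of the HSP70 family, lies at chr11:123062087-123062386 on the minus strand, and the capitals mark the matches to the heat shock element, which was searched as GAA, TTC and GAA with 2 bases of any kind between them. MT-TP, the mitochondrial transfer RNA for proline and the DEG that was lowest, lies at chrM:15956-16023 of hg38 on the minus strand, and the capitals mark its anticodon.
CHAC1 promoter: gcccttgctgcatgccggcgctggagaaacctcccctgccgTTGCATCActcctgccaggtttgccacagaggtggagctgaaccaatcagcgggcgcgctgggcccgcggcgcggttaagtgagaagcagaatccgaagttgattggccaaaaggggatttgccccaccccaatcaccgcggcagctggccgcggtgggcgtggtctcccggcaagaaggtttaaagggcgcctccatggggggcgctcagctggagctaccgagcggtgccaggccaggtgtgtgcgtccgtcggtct
HSPA8 promoter: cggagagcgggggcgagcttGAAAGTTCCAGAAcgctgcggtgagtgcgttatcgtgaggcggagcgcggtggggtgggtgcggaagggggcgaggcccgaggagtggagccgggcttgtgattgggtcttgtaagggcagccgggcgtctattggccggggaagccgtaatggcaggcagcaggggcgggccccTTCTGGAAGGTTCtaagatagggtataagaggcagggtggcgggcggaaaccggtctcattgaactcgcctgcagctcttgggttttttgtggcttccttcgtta
MT-TP gene: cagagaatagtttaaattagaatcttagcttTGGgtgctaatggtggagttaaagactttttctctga
Both motifs were searched on both strands. The response element was present in 1270 of 35116 promoters (3.62%) and occurred once in that of CHAC1, starting 209 bases before the RefSeq start, on the minus strand. The heat shock element was present in 172 promoters (0.49%) and occurred 2 times in that of HSPA8, starting 230 and 55 bases before the RefSeq start. A match describes the letters only, and binding was not measured.

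TFRC, the transferrin receptor that carries iron into the cell (chr3:196012511-196082153, minus strand), had the largest rise. Its level with DMSO was 152, 171, 397 and 208 CPM in replicates 1 to 4, and with Tpc + OL9-119 it was 395, 330, 205 and 389 CPM. Both replicate 3 libraries lay at the level of the other group, so the groups overlapped as labelled and were apart without replicate 3. The log2 fold change was 0.51 ± 0.157 (SE, adjusted p = 0.894) as labelled and 1.09 ± 0.0973 (adjusted p = 3.25e-11) without replicate 3, a 2.12-fold rise. TFRC was at 150 to 191 CPM with Tpc alone and at 313 to 373 CPM with OL9-119 alone. With Tpc + OL9-119 it exceeded the Tpc libraries by 1.07 ± 0.0896 on the log2 scale (adjusted p = 2.81e-12), whereas the difference to the OL9-119 libraries was 0.10 ± 0.0896 (adjusted p = 0.731).

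CHAC1, a glutathione-degrading enzyme that is induced by ATF4 in the stress response (chr15:40952962-40956512), followed the same order of libraries at a low level. It was counted at 8.77, 9.35, 25.1 and 13 CPM with DMSO and at 20.1, 23.2, 7.65 and 20.8 CPM with Tpc + OL9-119. The highest value of these 8 belonged to the library labelled DMSO replicate 3 and the lowest to that labelled Tpc + OL9-119 replicate 3. The log2 fold change was 0.37 ± 0.244 (adjusted p = 0.93) as labelled and 1.06 ± 0.207 (adjusted p = 0.00199) without replicate 3. Against Tpc alone, at 6.7 to 11.9 CPM, the difference was 1.15 (adjusted p = 0.000555), and against OL9-119 alone, at 16.9 to 23.3 CPM, it was 0.08 (adjusted p = 0.936).

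Of the 15 mitochondrial rRNA and protein genes, 1 rose, 1 fell and 13 did not pass without replicate 3, when 0.0825% of all genes were higher and 0.469% lower DEGs. MT-ND5, which encodes a subunit of respiratory complex I (chrM:12337-14148), was at 2092, 1656, 702 and 1731 CPM with DMSO and at 702, 539, 2125 and 589 CPM with Tpc + OL9-119. Again the 2 replicate 3 libraries held values of the other group. The log2 fold change was −0.65 ± 0.227 (adjusted p = 0.894) as labelled and −1.56 ± 0.11 (adjusted p = 4.83e-15) without replicate 3. MT-TP, whose gene is shown above, fell by 2.11 ± 0.324 on the log2 scale without replicate 3 (adjusted p = 4.23e-05), from 6.45 to 13 CPM with DMSO to 1.32 to 2.61 CPM. MT-RNR1, the small ribosomal RNA of the mitochondrion (chrM:648-1601), rose from 3700 to 4980 CPM to between 6756 and 8146 CPM, a log2 change of 0.80 ± 0.101 (adjusted p = 5.78e-07), and was at 9050 CPM in the library labelled DMSO replicate 3. These 3 are the DEGs of the mitochondrial genome. MT-RNR2 (0.33, adjusted p = 0.0222), MT-ND1 (0.49, adjusted p = 0.0311), MT-ND3 (−0.54, adjusted p = 0.0175) and MT-ND6 (−0.81, adjusted p = 0.0236) did not pass. The median log2 fold change of the 15 genes was −0.135 beside 0.00366 over all genes. As labelled none of the 15 passed. The libraries were made from poly(A) RNA, so the counts of MT-TP are of RNA that this selection retained.

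The same 3 genes passed the test against Tpc alone and did not pass it against OL9-119 alone. MT-ND5 was at 1799 to 2341 CPM in the Tpc libraries, a difference of −1.72 (adjusted p = 2e-17), and at 439 to 675 CPM in the OL9-119 libraries, a difference of 0.03 (adjusted p = 0.968). MT-TP differed by −2.31 (adjusted p = 7.58e-06) from Tpc and by −0.00 ± 0.404 (adjusted p = 1) from OL9-119. MT-RNR1 differed by 0.74 (adjusted p = 1.48e-06) and −0.09 (adjusted p = 0.766).

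Without replicate 3, 12 of 26678 genes (0.045%) differed between Tpc + OL9-119 and Tpc, 5 higher (0.0187%) and 7 lower (0.0262%). As labelled this number was 0 with edgeR (2219 at an unadjusted p below 0.05, or 8.22%) and 0 with DESeq2. The 5 higher genes were CHAC1, TFRC, C11orf96, MT-RNR1 and JUN, and the 7 lower were MT-TP, MT-ND5, CCN2, MT-ND3, TIPARP, CCN1 and HSPA8; C11orf96 and TIPARP were named after their values were seen. CCN2, a secreted matricellular protein and a target of YAP (chr6:131948176-131951372), was at 98.1, 119, 69.8 and 102.4 CPM with DMSO and at 75.7, 56.5, 110 and 53.1 CPM with Tpc + OL9-119. It fell by 0.77 ± 0.115 on the log2 scale against DMSO (adjusted p = 2.79e-05) without replicate 3. CCN1, a protein of the same family, fell by 0.63 ± 0.101 (adjusted p = 9.55e-05). Both were near their level with OL9-119 alone, at 52.8 to 69 CPM for CCN2 and 77.9 to 98.9 CPM for CCN1, and the differences to that group were −0.04 (adjusted p = 0.944) and 0.09 (adjusted p = 0.797). Counts of CCN2 may include an antisense gene that overlaps its exons.

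**Figure D2:**
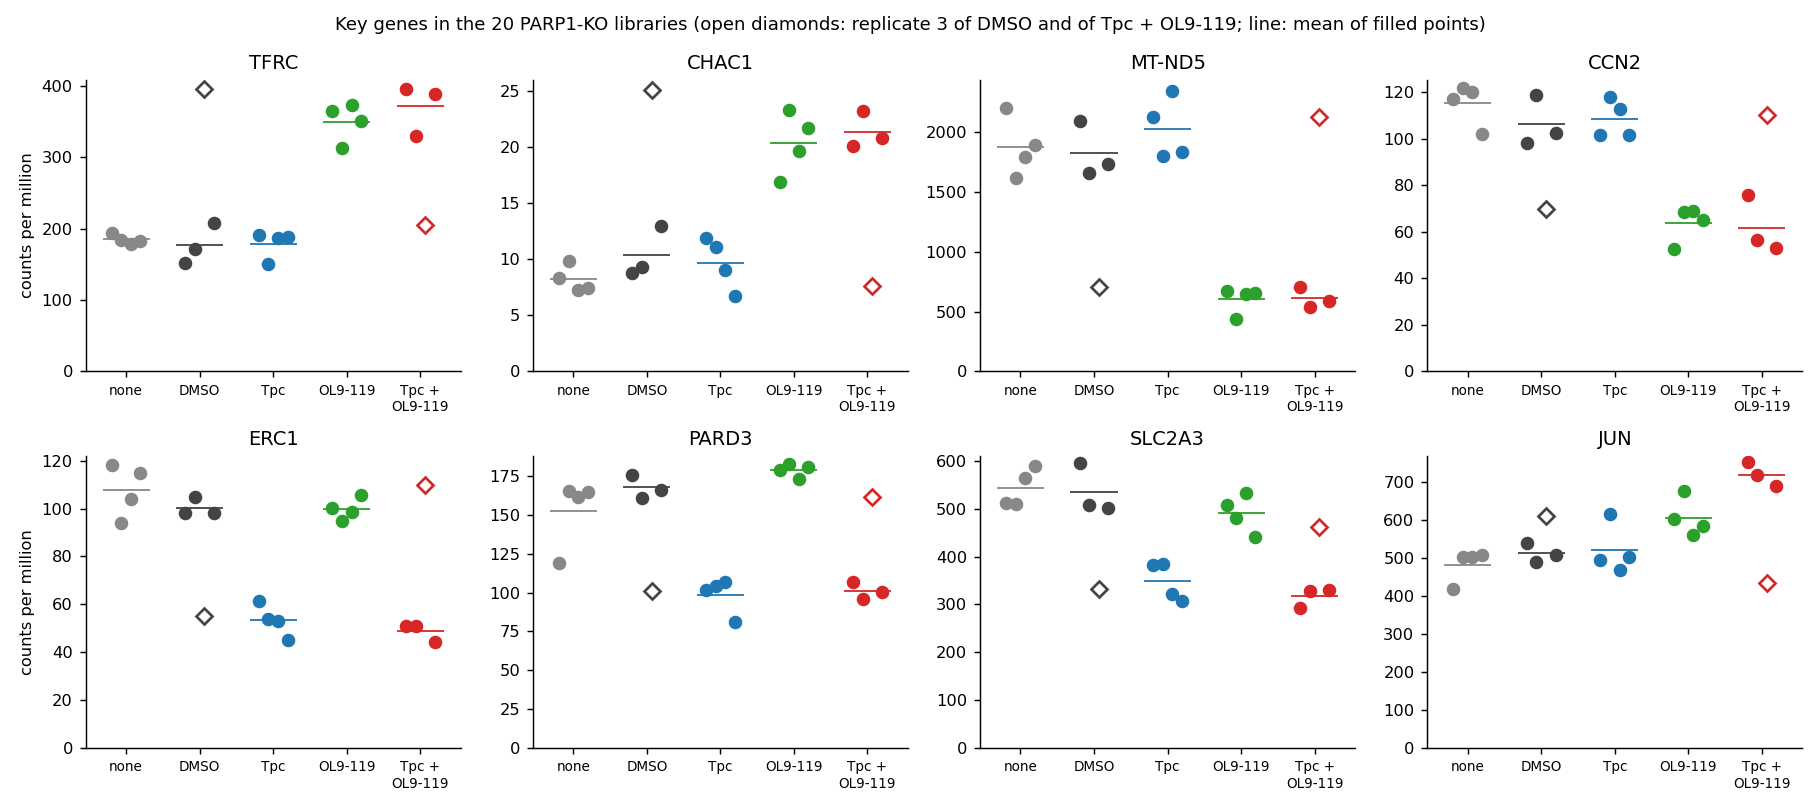
Levels of 8 genes (vertical axes, CPM, from 0) in the 20 PARP1-KO libraries by labelled treatment; filled points are libraries, open diamonds are the replicate 3 libraries of DMSO and of Tpc + OL9-119, and lines are means of the filled points. In TFRC, CHAC1, MT-ND5 and CCN2 the filled Tpc + OL9-119 points lie with OL9-119, in ERC1, PARD3 and SLC2A3 they lie with Tpc, and the 2 diamonds lie nearer to the other group in every panel but JUN, where the DMSO diamond (609 CPM) lies between the groups.

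Long genes made up most of the lower DEGs. Of the lower genes, 98.4% were protein-coding and 83.2% spanned at least 100 kb of the genome, with a median span of 317 kb. Of the 22 higher genes, 19 were protein-coding and 0 spanned 100 kb, with a median of 6.18 kb. The median over the 11582 protein-coding genes with a mean of at least 50 counts was 36.3 kb. Over all of these genes, called or not, the median log2 fold change without replicate 3 was 0.0796 below 10 kb, 0.0647 from 10 to 50 kb, −0.0139 from 50 to 100 kb, −0.129 from 100 to 200 kb, −0.297 from 200 to 500 kb and −0.505 at 500 kb or more. In the class of at least 500 kb, 147 of 156 genes were below 0 and 24 (15.4%) were lower DEGs, against 6 of 1921 (0.312%) below 10 kb. The same order held as labelled, from 0.046 in the shortest to −0.312 in the longest class, with no gene called in any class. That comparison includes the libraries used without replicate 3.

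**Figure D3:**
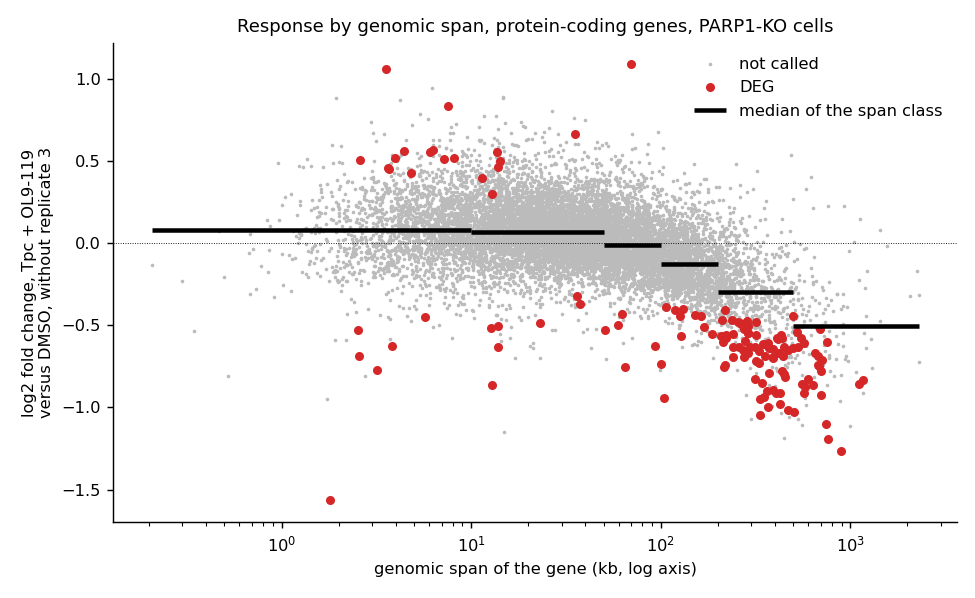
Log2 fold change with Tpc + OL9-119 against DMSO without replicate 3 (vertical axis) by genomic span in kb (horizontal log axis) for 11582 protein-coding genes; red points are DEGs and black bars are the medians of the 6 span classes. The medians pass from 0.0796 below 10 kb to −0.505 at 500 kb or more.

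ERC1, a scaffold protein of the cell cortex that spans 505 kb (chr12:990509-1495933), had the smallest p of the long genes. It was at 98, 104.7, 55.3 and 98.4 CPM with DMSO and at 50.8, 50.9, 110 and 44.3 CPM with Tpc + OL9-119. The log2 fold change was −0.49 ± 0.164 (adjusted p = 0.894) as labelled and −1.03 ± 0.109 (adjusted p = 8.92e-09) without replicate 3. Its level with Tpc alone, 44.9 to 61.2 CPM, overlapped that of the combination (a difference of −0.12, adjusted p = 0.724), while OL9-119 alone, at 94.8 to 106 CPM, did not overlap it (−1.02, adjusted p = 2.02e-09).

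The genes named next are others of the 24 lower DEGs of at least 500 kb. ROBO1, a receptor of SLIT ligands that spans 1171 kb, fell by 0.83 ± 0.113 on the log2 scale without replicate 3 (adjusted p = 3.94e-06), from a mean of 108 ± 6.49 CPM to 60 ± 7.32 CPM (SD, n = 3). NLGN1, a synaptic adhesion protein of 898 kb, fell by 1.27 ± 0.252 (adjusted p = 0.00252), from 11.1 to 12 CPM to between 2.85 and 5.97 CPM. PARD3, a cell polarity protein of 706 kb, fell by 0.71 ± 0.103 (adjusted p = 1.44e-05), from 176, 161 and 166 CPM to 107, 96 and 100 CPM. In the library labelled DMSO replicate 3 PARD3 was at 101.1 CPM and in that labelled Tpc + OL9-119 replicate 3 at 162 CPM. Other genes of at least 500 kb that fell were PSD3 (−0.85), TTC28 (−0.92), AGAP1 (−0.86), an ARF GTPase-activating protein, and CDK14 (−1.10), a cyclin-dependent kinase, with adjusted p from 2.44e-07 to 0.000127. FUT8, the core fucosyltransferase (334 kb, −1.05), ZNF407 (468 kb, −1.02) and the phospholipase PLCH1 (369 kb, −0.999) were among the 10 lowest DEGs with adjusted p of 0.00465, 0.00917 and 0.00943. Of these, CDK14, PSD3 and PLCH1 share exonic sequence with another gene on the same strand and their counts are uncertain. The lncRNA ENSG00000261051, of 2.1 kb, was also among the lowest 10 (−1.78, adjusted p = 0.00917). None of these genes passed as labelled.

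No gene of the longest class passed the test against Tpc alone. Against Tpc the median log2 difference of the class of at least 500 kb was −0.0422 with 0 of 156 genes called, and against OL9-119 it was −0.579 with 45 genes lower and 0 higher. Over all genes, 261 of 26678 (0.978%) differed from OL9-119 alone without replicate 3, 16 higher (0.06%) and 245 lower (0.918%), and 0 as labelled with edgeR (2350 at an unadjusted p below 0.05, or 8.7%), where DESeq2 called 11. The comparisons with DMSO, Tpc and OL9-119 share the Tpc + OL9-119 libraries. In single libraries, relative to the mean of the untreated PARP1-KO libraries, the median of the longest class was −0.477, −0.471 and −0.47 with Tpc + OL9-119 replicates 1, 2 and 4 and 0.0383 in the library labelled replicate 3. With DMSO it was −0.0133, 0.0303 and 0.0203 in replicates 1, 2 and 4 and −0.337 in the library labelled replicate 3. The Tpc libraries lay from −0.456 to −0.293 and the OL9-119 libraries from 0.014 to 0.175. With an offset for exonic length the median of the longest class was −0.417 without replicate 3 and −0.251 as labelled, and there were 72 DEGs, 61 of them lower and 71 of them among the 147.

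**Figure D4:**
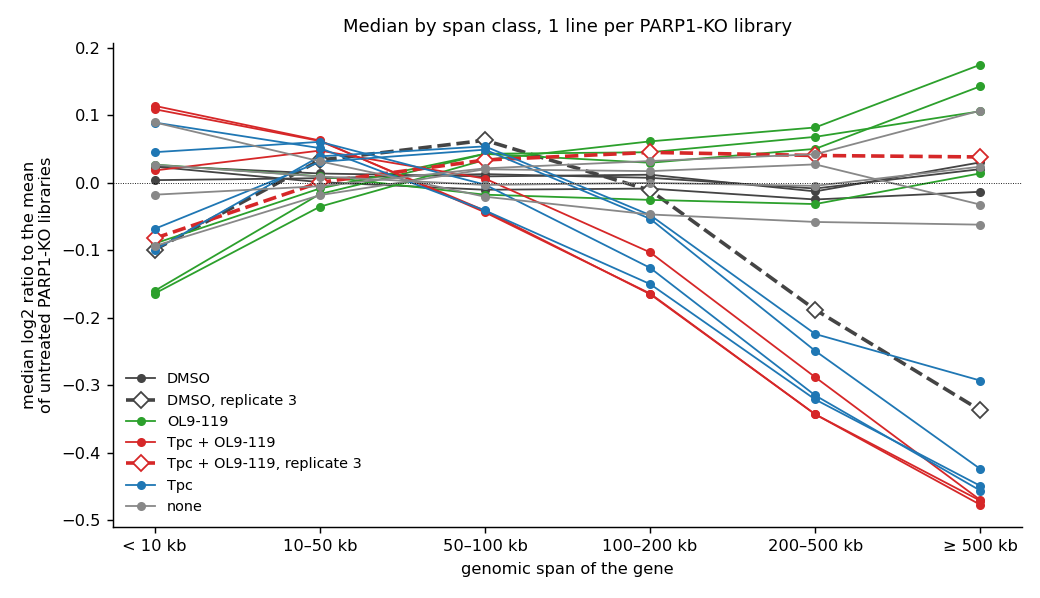
Median log2 ratio of each PARP1-KO library to the mean of the untreated libraries (vertical axis) in 6 classes of genomic span (horizontal axis), with 1 line per library coloured by labelled treatment and the replicate 3 libraries of DMSO and Tpc + OL9-119 dashed with open diamonds. The 3 solid Tpc + OL9-119 lines and the 4 Tpc lines end below −0.29 in the longest class together with the dashed DMSO line at −0.337, and the dashed Tpc + OL9-119 line ends at 0.0383.

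Of 26 genes of glucose uptake and glycolysis, 4 were lower DEGs, 0 higher and 22 did not pass without replicate 3, beside 0.469% lower over all genes. The median log2 fold change was −0.195 beside 0.00366 over all genes, and 22 of 26 were below 0 beside 12980 of 26678 over all genes. As labelled none passed and 23 were below 0 with a median of −0.124. SLC2A3, the glucose transporter GLUT3 (chr12:7919230-8019007), was at 596, 509, 332 and 503 CPM with DMSO and at 294, 329, 462 and 330 CPM with Tpc + OL9-119. The 2 groups were apart without replicate 3, and the replicate 3 libraries lay near the other group. Its log2 fold change was −0.74 ± 0.0891 (adjusted p = 2.32e-07) without replicate 3 and −0.46 ± 0.112 (adjusted p = 0.894) as labelled. LDHA, which converts pyruvate to lactate, fell by 0.50 (adjusted p = 0.000524), HK2, the hexokinase that traps glucose in the cell, by 0.50 (adjusted p = 0.00624) and PGK1 by 0.41 (adjusted p = 0.00361). SLC2A3 was lower than with OL9-119 alone (−0.62, adjusted p = 2.19e-06), and its difference to Tpc alone was −0.12 (adjusted p = 0.61).

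Of 30 AP-1 and immediate early genes, 2 rose, 2 fell and 26 did not pass without replicate 3, beside 0.0825% higher and 0.469% lower over all genes. Their median log2 fold change was 0.129 beside 0.00366 over all genes. JUN, a subunit of AP-1, was at 540, 488, 609 and 507 CPM with DMSO and at 751, 718, 434 and 688 CPM with Tpc + OL9-119. It rose by 0.51 ± 0.0861 on the log2 scale (adjusted p = 0.000233) without replicate 3, and its change as labelled was 0.27 (adjusted p = 0.894). MYC, a transcription factor of cell growth, was at 31.9, 36.6, 57.3 and 42.8 CPM with DMSO and at 70.4, 66.9, 36.4 and 59.4 CPM with Tpc + OL9-119, a rise of 0.83 ± 0.142 (adjusted p = 0.000255). JUN also exceeded its level with Tpc alone by 0.48 (adjusted p = 0.000501), and MYC differed from Tpc alone by 0.63 (adjusted p = 0.0238) and from OL9-119 alone by 0.42 (adjusted p = 0.0832). The 2 genes that fell were CCN1 and CCN2.

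In the G2/M and mitosis list, 39 of 40 genes were below 0 without replicate 3, with a median of −0.223, and 37 of 40 as labelled, with a median of −0.152. Over all genes 12980 of 26678 were below 0 without replicate 3. In bulk RNA a smaller share of mitotic cells and less of these transcripts per cell cannot be told apart. Of the 40 genes 3 fell and 37 did not pass, beside 0.469% lower over all genes. PLK1, a kinase of mitotic entry, was at 90.9, 85.7, 43.6 and 94.6 CPM with DMSO and at 59, 67.7, 84.8 and 60.8 CPM with Tpc + OL9-119. It fell by 0.51 ± 0.102 (adjusted p = 0.00242), the spindle kinase AURKA by 0.48 ± 0.106 (adjusted p = 0.00667) and the kinetochore motor CENPE by 0.63 ± 0.135 (adjusted p = 0.00569). CENPE differed from this order, since its level in the library labelled DMSO replicate 3 was 77.3 CPM, the highest of the 8 libraries. PLK1 shares exonic sequence with antisense genes. In the G1/S and replication list 33 of 41 genes were above 0, with a median of 0.12, and none passed. Over all genes 13444 of 26678 were above 0, with a median of 0.00366.

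In the stress lists below, single members at most were DEGs without replicate 3, though most members of several lists lay above 0. In the ATF4 list of transcription factors and stress effectors 18 of 20 genes were above 0, with a median of 0.197, and CHAC1 alone passed. Over all genes 13444 of 26678 were above 0, with a median of 0.00366. Beside this list and the next ones, 0.0825% of all genes were higher and 0.469% lower DEGs. CEBPB (0.59, adjusted p = 0.0254), CTH (0.66, adjusted p = 0.0346) and DDIT3 (0.32, adjusted p = 0.137), all targets or partners of ATF4, did not pass. None of the 20 ATF4 targets of amino acid synthesis and transport and none of the 20 aminoacyl-tRNA synthetases passed, with medians of 0.101 and 0.0311. Of 20 genes in the list of ER chaperones and their regulators, XBP1, a transcription factor of the unfolded protein response, rose by 0.55 ± 0.0856 (adjusted p = 4.65e-05). Of 30 NF-kappa B targets, NFKBIA, which encodes the inhibitor IkBα, rose by 0.45 ± 0.102 (adjusted p = 0.00968), from 78.8, 81.1 and 75.8 CPM to 101.5, 114.5 and 102.1 CPM, and CXCL8 (0.30, adjusted p = 0.459) and TNFAIP3 (0.23, adjusted p = 0.607) did not pass. HMOX1, heme oxygenase 1, fell by 0.63 ± 0.133 (adjusted p = 0.00448) as the one DEG among 20 NRF2 and glutathione genes. Above 0 were 16 of 20 genes of the ER list (median 0.156) and 20 of 30 NF-kappa B targets (0.195). Of the NRF2 and glutathione genes 11 of 20 were above 0 (0.0151).

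Of 18 heat shock genes, 2 fell without replicate 3, beside 0.469% lower over all genes. In this list 17 of 18 were below 0, beside 12980 of 26678 over all genes, with a median of −0.0957. HSPA8 (chr11:123057489-123063230, minus strand), whose promoter is shown above, was at 752, 760, 618 and 823 CPM with DMSO and at 520, 590, 890 and 581 CPM with Tpc + OL9-119. It fell by 0.45 ± 0.0769 (adjusted p = 0.000255) without replicate 3 and changed by −0.20 (adjusted p = 0.894) as labelled. It was lower than with Tpc alone (−0.53, adjusted p = 9.53e-06) and differed from OL9-119 alone by 0.05 (adjusted p = 0.844). HSPA1B, an inducible HSP70, fell by 0.53 ± 0.111 (adjusted p = 0.00448). Its reads can be shared with the near-identical HSPA1A, and HSPA8 overlaps other genes on its strand, so both counts carry that uncertainty.

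The remaining higher DEGs of the 10 largest changes were DCUN1D2 (0.67), MSX2 (0.57), CDKN2AIP (0.56), ZFP62 (0.55) and FOXC1 (0.52), with adjusted p from 0.00242 to 0.00943. MSX2 and FOXC1 are developmental transcription factors, and CDKN2AIP regulates the ARF and p53 pathway. In the splicing list of 20 SR proteins and kinases, SRSF6 alone passed and rose by 0.52 ± 0.0811 (adjusted p = 6.53e-05). Beside this list and the next, 0.0825% of all genes were higher DEGs. Of 19 host genes of small nucleolar RNAs, SNHG1 (0.50, adjusted p = 7.23e-05) and SNHG12 (0.51, adjusted p = 0.00662) rose, and since their exons overlap other genes on the same strand the values are uncertain. No member passed in the lists of TOP1 and TDP1 partners (9 genes), single-strand break repair (25), homologous recombination and checkpoint (42), p53 targets (30), replication-dependent histones (41), cholesterol and fatty acid synthesis (29), nuclear oxidative phosphorylation (72), cytosolic ribosomal proteins (79), mitochondrial ribosomal proteins (77), the proteasome (42), spliceosome snRNPs (39), ribosome biogenesis (37), the BCL2 family (14) or interferon-stimulated genes (25). Over all genes 0.551% were DEGs, so lists of this size with none called do not show a lack of response. Without replicate 3, 65 of 79 cytosolic ribosomal protein genes and 55 of 72 nuclear oxidative phosphorylation genes were below 0. Their medians were −0.0605 and −0.0856. Above 0 were 20 of 25 single-strand break repair genes (median 0.0991) and 22 of 30 p53 targets (0.0999). In homologous recombination and checkpoint 22 of 42 were above 0 (0.00646). TOP1, the target of Tpc, changed by −0.19 (adjusted p = 0.495), and TDP1, the target of OL9-119, by −0.29 (adjusted p = 0.703). None of the 8 markers of the cell line, the 7 tested of the differentiated kidney or the 11 tested of blood, endothelial and fibroblast cells passed.

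In WT cells the same combination, with 100 nM Tpc, changed 978 of 28922 genes (3.38%), 532 higher (1.84%) and 446 lower (1.54%), in the fit of all 40 libraries. The difference between the PARP1-KO and the WT response passed the test for 0.432% of these genes, 35 higher (0.121%) and 90 lower (0.311%), as labelled. With the 2 PARP1-KO replicate 3 libraries left out it passed for 61 of 28705 genes (0.213%), 13 higher (0.0453%) and 48 lower (0.167%). The Tpc dose differed between the genotypes, so genotype and dose cannot be told apart. The differences below are PARP1-KO minus WT.

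Targets of NF-kappa B were among the genes whose response was lower in PARP1-KO cells. CXCL8, the chemokine interleukin 8, was at 10.9 to 23.3 CPM in WT cells with DMSO and at 291 to 453 CPM with Tpc + OL9-119. In PARP1-KO cells it was at 30.7 to 46.3 CPM with DMSO and 37 to 42.3 CPM with the combination, which overlapped as labelled. In replicates 1, 2 and 4 it was at 31.3, 34.5 and 30.7 CPM with DMSO. With the combination these replicates were at 37.7, 39.4 and 42.3 CPM, which did not overlap, though CXCL8 was not a DEG. The difference of the log2 responses was −4.41 ± 0.255 (adjusted p = 4.42e-20) as labelled and −4.24 ± 0.27 (adjusted p = 2.06e-17) without replicate 3. It was −4.54 for the chemokine CCL20, −3.93 for TNFAIP3, which limits NF-kappa B signalling, −2.22 for IER3 and −1.89 for the stress transcription factor ATF3, with adjusted p from 2.34e-17 to 1.07e-13 as labelled. ATF3 with DMSO was already at 318 to 357 CPM in PARP1-KO cells, near the 347 to 388 CPM of WT cells after treatment. IER3 with DMSO was at 183.7 to 218.5 CPM in PARP1-KO and 47.4 to 51 CPM in WT cells, which reached 200.7 to 240.8 CPM after treatment. TNFAIP3 with DMSO was at 46.4 to 62.7 CPM in PARP1-KO and 4.08 to 15.2 CPM in WT cells. CCL20 with DMSO was at 11.8 to 17.2 and 1.48 to 6.04 CPM. After treatment TNFAIP3 and CCL20 reached 161.2 to 194.2 and 63.8 to 91.5 CPM in WT cells. CHAC1 rose in both genotypes without replicate 3, by 1.06 in PARP1-KO and by 4.40 in WT cells, with a difference of −3.34 ± 0.55 (adjusted p = 0.000111). Its WT level with DMSO was 0.12 to 2.7 CPM, below that in PARP1-KO cells, and with the combination it was 15 to 41 CPM.

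Heat shock and mitotic genes were among those that fell more in WT cells. HSPA8 fell from between 1390 and 1608 CPM to between 360 and 547 CPM in WT cells, a log2 fold change of −1.78, and the difference was 1.59 ± 0.174 (adjusted p = 1.67e-09) as labelled and 1.33 ± 0.163 (adjusted p = 1.24e-07) without replicate 3. HSPA1B fell by 2.62 in WT cells, with a difference of 2.28 as labelled (adjusted p = 4.45e-12). The mitotic genes KIF20A (−1.90 in WT, a difference of 1.71, adjusted p = 2.37e-08) and AURKA (−1.49 in WT, 1.30, adjusted p = 2.28e-05) and the HSP40 gene DNAJB1 (−1.12 in WT, 1.09, adjusted p = 7.23e-07) had smaller changes in PARP1-KO cells. KIF20A did not pass against DMSO in PARP1-KO cells (−0.37, adjusted p = 0.0498 without replicate 3).

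For TFRC, MT-ND5 and ERC1 the difference did not pass the test. TFRC rose by 1.16 in WT cells, from at most 224 CPM to between 315 and 446 CPM, and the difference without replicate 3 was −0.07 ± 0.242 (adjusted p = 1). MT-ND5 fell by 1.85 in WT cells, with a difference of 0.28 ± 0.185 (adjusted p = 0.66), and for ERC1 the WT change was −0.86 and the difference −0.17 ± 0.338 (adjusted p = 1). The standard errors are wide relative to these differences and do not show that the responses are alike. By genomic span the median WT change was −0.136 below 10 kb, 0.027 from 10 to 50 kb, 0.0887 from 50 to 100 kb, 0.056 from 100 to 200 kb, −0.134 from 200 to 500 kb and −0.363 at 500 kb or more. Lower DEGs were 13 of 156 genes (8.33%) in the longest and 154 of 1921 (8.02%) in the shortest class. The WT medians did not follow the stepwise order of the PARP1-KO cells, but the WT controls differed among themselves. ERC1 was at 52.3 CPM in WT DMSO replicate 3 and at 80.6 to 153.8 CPM in the other WT DMSO libraries. That library also had the fewest genes detected of its group (16029 against 17394 to 21101). Its part in the WT medians was not tested.

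**Figure D5:**
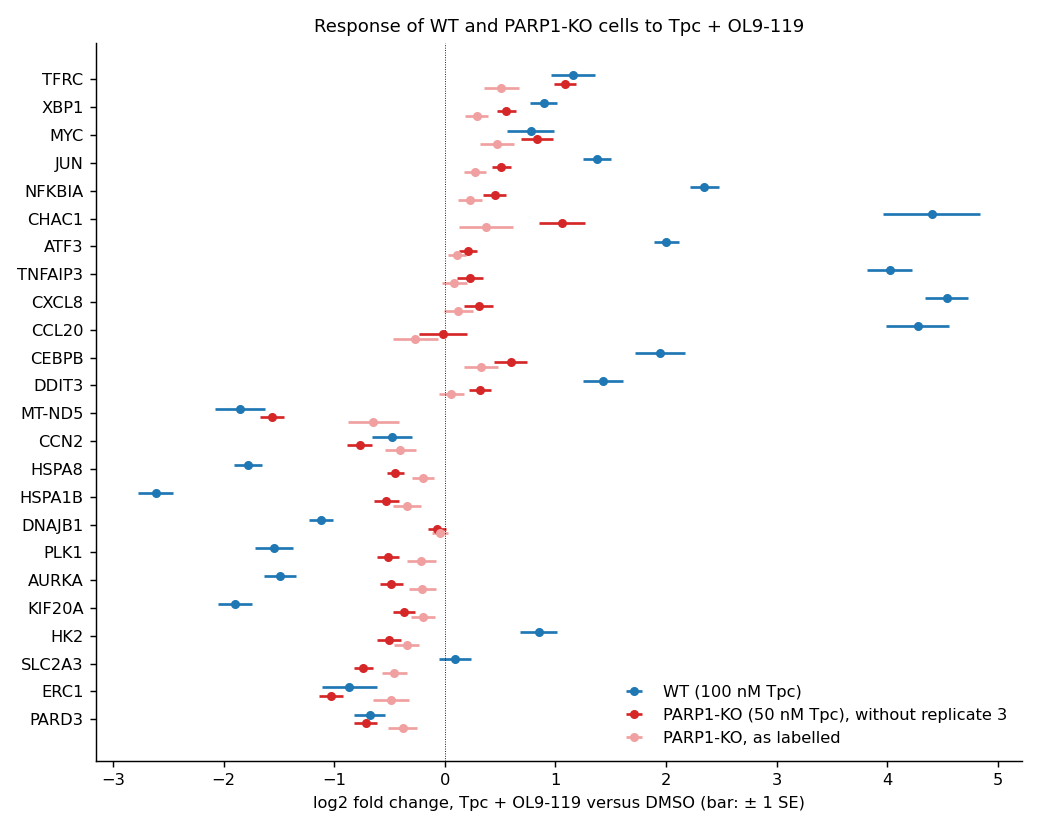
Log2 fold change with Tpc + OL9-119 against DMSO (horizontal axis, bars ± 1 SE) of 24 genes in WT cells at 100 nM Tpc (blue), PARP1-KO cells at 50 nM Tpc without replicate 3 (red) and PARP1-KO cells as labelled (light red). CXCL8, CCL20 and TNFAIP3 lie above 4 in WT and at or below 0.30 in PARP1-KO cells, while TFRC, MT-ND5 and ERC1 lie near each other in WT and in PARP1-KO cells without replicate 3.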

How the data were processed

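RNA-seq of HEK293A cells was used as a table of raw read counts per gene for 40 libraries, deposited by the authors. Per the labels, poly(A) RNA was sequenced from paired ends of strand-marked libraries. FastQC 0.11.9, STAR 2.7.8 and Picard 2.26.6 are in the submitters' processing notes, and the counts were made by STAR on hg38. The strand of the counts is not given in the sources used here, so reads of genes that overlap on opposite strands cannot be told apart. Of 58395 genes listed, 57754 matched GENCODE 44.

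Genes with at least 10 summed counts over the PARP1-KO libraries were tested with edgeR 4.0.16 (R 4.3.3, quasi-likelihood F-test, TMM scaling, legacy setting), with 1 group per treatment and Benjamini-Hochberg adjustment. DESeq2 1.42.0 was an alternative. SE is the log2 fold change divided by the square root of F. CPM are TMM-scaled. Named genes were PARP1, TOP1 and TDP1, the 10 highest and 10 lowest DEGs that had 50 counts or more on average and no overlap of groups, the DEGs and up to 4 further genes of each list, up to 8 DEGs of at least 500 kb, and the 5 smallest p in each direction of the other comparisons. Some items are not reported here. The members and lists were chosen with earlier results of these data known. Both tests were checked on simulated data. The 190 pairs of PARP1-KO libraries all differed by more than counting noise (lowest chi-square per degree of freedom 3.15). The genotype is given as knockdown in 1 field of the labels and as knockout in the titles.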

Additional observations from a re-analysis of the deposited data

Results flagged for a closer look

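In groups of 4 libraries, a library was singled out where its gap to the nearest other exceeded Dixon's 95% critical value as a share of the group's range, which chance does in about 1 of 20 groups. This was examined for 59 genes in both groups. The library labelled DMSO replicate 3 stood apart in 10 values. It was lowest in ERC1 (55.3 CPM), FUT8 (8.31 CPM), AURKA (70.4 CPM) and KIF20A (83.2 CPM), and highest in SRSF6 (591 CPM), SNHG1 (347 CPM), ZFP62 (80.4 CPM) and FOXC1 (101.3 CPM). It also stood apart in the median log2 ratio of genes of at least 500 kb (−0.337) and on the first principal component (3.26). The library labelled Tpc + OL9-119 replicate 3 stood apart in 10 values as well. It was highest in MT-ND5 (2125 CPM), MT-TP (10.4 CPM), ERC1 (110 CPM), CDK14 (34.6 CPM), PARD3 (162 CPM), TTC28 (57.6 CPM) and ZNF407 (16.8 CPM), and lowest in SNHG1 (249 CPM). Its median of the longest genes was 0.0383 and its first principal component −3. Many of these genes were named because the groups were apart without replicate 3, so a gap of replicate 3 in them follows in part from that choice. IER3 was highest in the library labelled DMSO replicate 1 (220 CPM).

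By the edgeR test of the difference itself, as labelled, the response differed between PARP1-KO and WT cells for 19 of the 59 genes examined. Over all genes 0.432% passed. HSPA1B, HSPA8, KIF20A, DNAJB1, AURKA, CXCL8, TNFAIP3, IER3, ATF3 and CCL20 were named for the smallest p in this test. That they passed follows from that choice. The difference of the log2 fold changes, PARP1-KO minus WT, was −4.54 for CCL20, −4.41 for CXCL8, −4.03 for CHAC1, −3.93 for TNFAIP3, −2.22 for IER3, −2.11 for NFKBIA, −1.89 for ATF3, −1.80 for CTH, −1.61 for CEBPB, −1.36 for DDIT3, −1.18 for HK2, −1.09 for JUN and −0.95 for SNHG1. It was 2.28 for HSPA1B, 1.71 for KIF20A, 1.59 for HSPA8, 1.35 for PLK1, 1.30 for AURKA and 1.09 for DNAJB1. With the PARP1-KO replicate 3 libraries left out, PLK1 (adjusted p = 0.012), SNHG1 (0.0133), DDIT3 (0.0262), CEBPB (0.0291) and CTH (0.102) no longer passed. The Tpc dose differed between the genotypes and cannot be told apart from the genotype. Control levels differed as well for some of these genes. JUN with DMSO was at 489.2 to 617.6 CPM in PARP1-KO and 163.7 to 217.9 CPM in WT cells, which reached 413 to 574.4 CPM after treatment.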

How the results depend on the processing

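As labelled, the count of 0 DEGs against DMSO became 5 with no filter on low counts and 0 to 21 when 1 library was left out, with 21 without the library labelled Tpc + OL9-119 replicate 3, 3 without the library labelled DMSO replicate 3 and 1 without Tpc + OL9-119 replicate 1. Without replicate 3 of both groups, the 147 DEGs (22 higher, the others lower) became 232 (46 and 186) with DESeq2, 566 (438 lower) with only the libraries compared, 5 (1 and 4) with all conditions fitted, 307 (64 and 243) at an adjusted p below 0.05, 11 (2 and 9) when the log2 change also had to reach 1 in size, 72 (11 and 61) with the exonic length offset and 276 against the untreated libraries. Leaving out 1 more library gave 60 to 91, namely 67, 63 and 72 without DMSO replicates 1, 2 and 4, and 60, 66 and 91 without Tpc + OL9-119 replicates 1, 2 and 4. With RLE scaling the count was 141. Against Tpc the count of 0 became 12 without replicate 3 and 0 to 10 when 1 library was left out (10 without the library labelled Tpc + OL9-119 replicate 3, 3 without Tpc replicate 2 and 1 without Tpc + OL9-119 replicate 1). Against OL9-119 it became 11 with DESeq2, 261 without replicate 3 and 0 to 199 when 1 library was left out (199 without the library labelled Tpc + OL9-119 replicate 3). The PARP1-KO minus WT count (35 higher, 90 lower) became 61 without replicate 3. Apart from leaving libraries out, the cause of these changes was not tested. Of 42 named DEGs without replicate 3, none reversed in sign under the alternatives of that comparison. Changes of sign in genes that did not pass are not covered by that statement. TFRC and MT-ND5 passed under every alternative of that comparison. As labelled neither passed. In the fit of all conditions the adjusted p of other named DEGs ran from 0.0253 for SLC2A3 and 0.0483 for ROBO1 through 0.166 for ERC1 and 0.259 for HSPA8 to 1 for CHAC1 and NLGN1, with PARD3 at 0.00768.

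Correlations of same-numbered deviations from the group means were −0.0065, 0.186, 0.0111 and −0.101 for replicates 1 to 4. The mean for different numbers was −0.00827. These group means included both replicate 3 libraries, so the correlations cannot decide whether the replicate numbers pair the libraries. On the second principal component (23.7% of the variance) the replicate 2 libraries of all treatments lay between −3.55 and −2.45. The replicate 3 libraries lay between 1.38 and 4.28, except the untreated one at −2.78. With a replicate block the counts were 0 against DMSO as labelled, 291 (60 higher, 231 lower) without replicate 3, 9 against Tpc, 78 against OL9-119 and 164 for PARP1-KO minus WT.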

Other observations

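The next genes are lower DEGs of short span that were named after their values were seen, and no list holding them was examined. NDRG1, a stress-responsive cytosolic protein, was at 1179, 960, 560 and 905 CPM with DMSO and at 469, 662, 892 and 650 CPM with Tpc + OL9-119 in replicates 1 to 4. Its log2 fold change without replicate 3 was −0.76 (edgeR, adjusted p = 2.79e-05). STC1, the hormone stanniocalcin 1, was at 65.7, 46.1, 34.2 and 43.4 CPM and at 28.9, 25.6, 52.5 and 29.5 CPM, a change of −0.86 (adjusted p = 0.000679). HILPDA, a lipid droplet protein, was at 72.9, 49.2, 28.3 and 51 CPM and at 29.6, 34.7, 52.9 and 41.4 CPM, a change of −0.69 (adjusted p = 0.0091). In each of these genes the library labelled DMSO replicate 3 was the lowest of its group, and the library labelled Tpc + OL9-119 replicate 3 was the highest of its group.

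Further genes among the 22 higher DEGs were also named after their values were seen. HES1, a repressor downstream of Notch, rose by 0.50 on the log2 scale (adjusted p = 0.00315), HEXIM1, an inhibitor of P-TEFb, by 0.46 (adjusted p = 0.00683), ID4, an inhibitor of basic helix-loop-helix factors, by 0.43 (adjusted p = 0.00105) and BRD2, a bromodomain protein that binds acetylated histones, by 0.30 (adjusted p = 0.00663), all without replicate 3. None of these genes passed as labelled.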
